A study of Aedes aegypti with 6 samples.

Results

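The 8 PIWI family genes of the yellow fever mosquito, Aedes aegypti, are described here in pupal testes of a strain that carries meiotic drive and of a strain that does not. They were chosen by identifier: AAEL008076 (Piwi1), AAEL008098 (Piwi2), AAEL013692 (Piwi3), AAEL007698 (Piwi4), AAEL013233 (Piwi5), AAEL013227 (Piwi6), AAEL006287 (Piwi7) and AAEL007823 (Ago3). All 8 were found among the 12813 genes of the deposited table, each with 1 transcript. The pairing of names and identifiers comes from this choice. None of the 8 identifiers was found in the RefSeq table of 19623 genes used here, so it could not be checked, and positions and sequences are not given.

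PIWI proteins are the Argonaute proteins that bind piRNAs, a class of small RNA longer than miRNAs that guides them to matching transcripts, chiefly those of transposons. In animal gonads this protects the germline genome, and in flies the loss of PIWI proteins releases transposons and makes males or females sterile. In the ping-pong cycle, an Ago3 protein and a partner of the Piwi/Aubergine group cut transcripts of opposite strands and so make piRNAs for each other. Aedes mosquitoes have more PIWI genes than flies, and some of them also act on viral RNA in somatic cells.

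The groups were testes of male early pupae of the meiotic drive strain T37 (3 arrays) and of the non-drive strain RED (3 arrays). Meiotic drive is biased transmission, in which one chromosome enters most of the working gametes. The driver known in this species lies close to the locus that determines maleness, so driving males father mostly sons. T37 and RED were kept alike, under 80% humidity at 26°C, with days of 16 h of light. Each array came from a separate extract of total RNA, labelled with Cy3 and hybridised alone to a NimbleGen array, and the signal of a feature follows the level of its transcript. Each kind of strain is represented by 1 strain, so the drive and other differences between T37 and RED cannot be told apart. The number of males per extract is not known here. The table does not name its identifiers, so the tissue was not checked against testis markers. In whole testes, fewer cells of a type and less RNA per cell cannot be told apart.

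The arrays had close median intensities, from 1785 to 1907 over genes, but their dim ends differed. The 5th percentile of intensity was 88.7 on RED replicate 3 and 123 to 195 on the other 5 arrays. Across genes, which are not independent replicates, the log2 intensities of RED replicate 3 correlated with those of the other RED arrays at r = 0.874 and 0.891, against 0.974 between RED replicates 1 and 2. T37 replicate 3 correlated with the other T37 arrays at 0.948 and 0.958, against 0.983 between T37 replicates 1 and 2. Results for the PIWI genes are therefore given with and without replicate 3 of each strain.

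The PIWI genes fell into bright, middle and very dim features, and they did so on the arrays of both strains. Piwi2, Piwi3 and Ago3 lay in the brightest decile of genes by mean log2 intensity, Piwi5 in decile 9, Piwi6 in decile 7, Piwi4 in decile 6, and Piwi1 and Piwi7 in decile 1. Brightness depends on the probes of each gene as well as on its transcript, so these places describe the features and do not rank the genes by abundance. A percentile here is the percent of genes with a lower intensity on the same array. Piwi4 had percentiles of 49.4 to 57.8 in T37 and 52.7 to 54.6 in RED, Piwi5 of 81.8 to 86.8 and 81.1 to 84.1, and Piwi6 of 66.4 to 71.9 and 62.8 to 71.7. In these 3 genes the strains overlapped in percentile as well as in intensity.

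**Figure D1:**
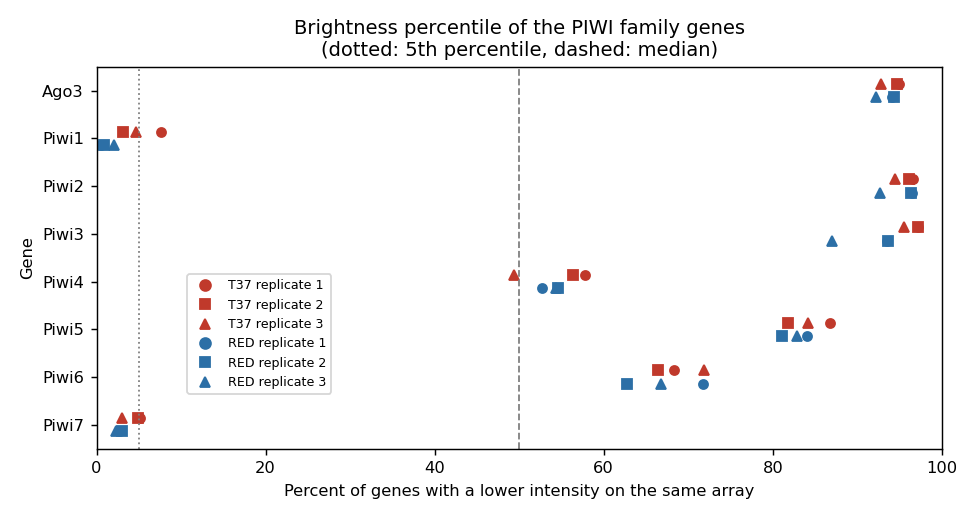
Percentile of each PIWI family gene among the 12813 genes on each array (x axis, percent of genes with a lower intensity on the same array). Each point is 1 array, coloured by strain and shaped by replicate. Piwi1 and Piwi7 lie near or under the 5th percentile, Piwi4 near the median, and Piwi2, Piwi3 and Ago3 at 87.0 or higher.

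No PIWI gene passed the test between the strains. By limma, fitted on log2 intensity across all genes, 0 of the 8 had an adjusted p under 0.05, where 4.53% of all genes did. At an unadjusted p under 0.05 there were 2 of 8, Piwi1 and Piwi3, against 22.7% of all genes. The same 2 genes, 25% of the family, had all T37 arrays above all RED arrays. Over all genes 15.4% did, and 28.7% had T37 and RED arrays without overlap in either direction. Counts of 2 in 8 are thus near the background. The strain difference, T37 minus RED on the log2 scale, was above 0 in all 8 genes and in 6316 of all 12813. Its median was 0.17 in the family against -0.0099 over all genes. For Piwi2, Piwi7 and Ago3 the sign rests on RED replicate 3: without that array their differences were -0.13, -0.10 and -0.0065. Piwi4 changed sign too, to -0.036 without T37 replicate 1 and to -0.0022 without T37 replicate 2, and after cyclic loess scaling, to -0.023. Piwi2 changed to -0.0053 without T37 replicate 1.

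**Figure D2:**
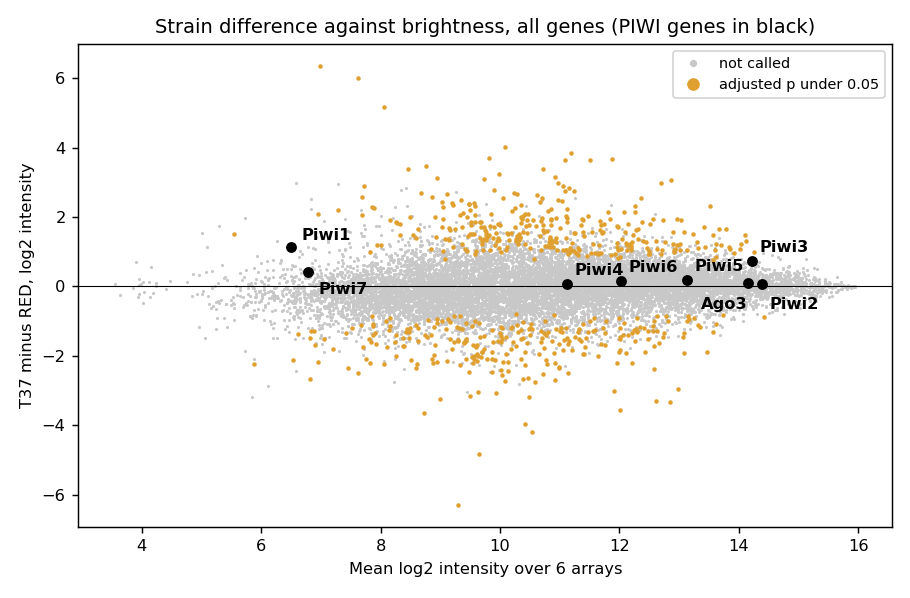
Strain difference (y axis, T37 minus RED, log2 intensity) against mean log2 intensity over the 6 arrays (x axis) for all 12813 genes. Grey points did not pass the limma test, orange points are the 580 with an adjusted p under 0.05, and black points are the PIWI genes, none of which passed.

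Piwi3 is one of the PIWI genes described mainly from the germline in Aedes. Its intensity was 26597, 26561 and 21285 on T37 replicates 1, 2 and 3, and 17401, 17674 and 10761 on RED replicates 1, 2 and 3. The lowest T37 array was thus brighter than the highest RED array. Piwi3 averaged 14.59 ± 0.19 on the T37 arrays and 13.86 ± 0.41 on the RED arrays (log2 intensity, SD, n = 3 each). The difference was 0.73 (SE 0.25, 95% interval 0.11 to 1.34), or 1.66-fold, with a limma p of 0.0275 that became 0.164 after adjustment over all genes. In its rank from the brightest gene, Piwi3 stood at 356, 356 and 574 on the T37 arrays and at 828, 814 and 1663 on the RED arrays. Genes as bright as Piwi3 seldom differed that much: 53 of the 1282 genes in its decile (4.13%) had a larger difference in either direction, and the decile's median absolute difference was 0.17. Its replicates also varied more than those of the decile, with a pooled SD of 0.32 against a median of 0.16.

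The size of the Piwi3 difference moved with the arrays used, while its sign stayed in all 18 alternatives. Every T37 array was above every RED array, so leaving out or weighting arrays could not have changed that sign. The replicate block, intensity trend, robust prior and single transcripts leave the difference itself unchanged. Without RED replicate 3 the difference was 0.49 (limma adjusted p = 0.147), and without T37 replicate 3 it was 0.83 (limma adjusted p = 0.162). With both left out it was 0.60 (SE 0.18, 95% interval 0.15 to 1.05) and passed narrowly (limma adjusted p = 0.0497), in a fit that called 32.9% of all genes. With arrays weighted by quality it was 0.64 and passed (limma adjusted p = 0.0281), in a fit that called 30% of all genes. A call in these fits is a common one.

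Piwi2 is another gene known mainly from the germline. Its intensity was 24108, 22763 and 19123 on T37 replicates 1, 2 and 3, and 24198, 23738 and 15984 on RED replicates 1, 2 and 3. The groups overlapped, and the lowest array of each strain was its replicate 3. Piwi2 averaged 14.42 ± 0.17 on the T37 arrays and 14.35 ± 0.34 on the RED arrays (log2 intensity, SD, n = 3 each). The difference was 0.06 (SE 0.23, 95% interval -0.49 to 0.62; limma adjusted p = 0.908). The interval leaves room for levels from 1.41-fold lower to 1.54-fold higher in T37.

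Ago3, the ping-pong partner that in Aedes cells takes up sense piRNAs, was also bright in both strains. Its intensity was 20666, 19552 and 16428 on T37 replicates 1, 2 and 3, and 18449, 19319 and 15395 on RED replicates 1, 2 and 3. The groups overlapped, again with replicate 3 lowest in each strain. Ago3 averaged 14.20 ± 0.17 on the T37 arrays and 14.11 ± 0.17 on the RED arrays (log2 intensity, SD, n = 3 each), and the difference was 0.09 (SE 0.18, 95% interval -0.36 to 0.54; limma adjusted p = 0.824). That interval runs from 1.28-fold lower to 1.45-fold higher in T37.

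**Figure D3:**
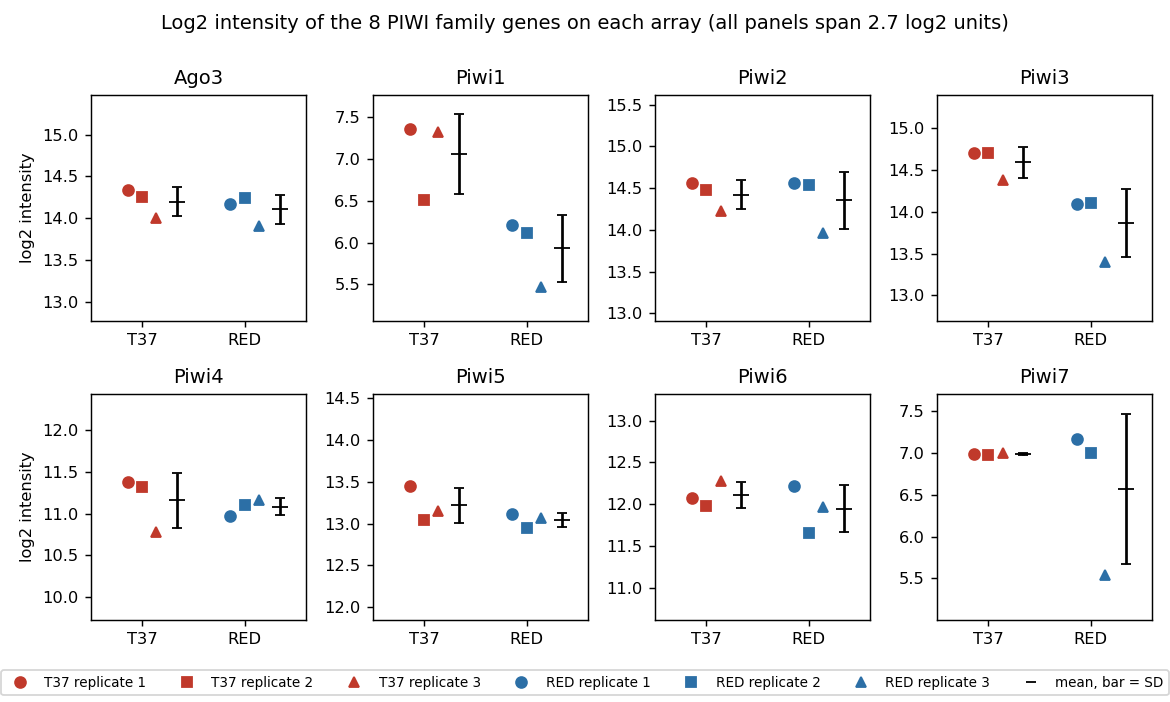
Log2 intensity (y axis) of each PIWI family gene on each array, by strain, with the mean and SD of each strain in black (n = 3). All panels span the same range. T37 and RED arrays are apart for Piwi1 and Piwi3 and overlap for the other 6 genes. RED replicate 3 is the lowest of the 6 arrays for 5 genes.

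Replicate 3 was low for the bright PIWI genes in each strain. Against the mean log2 intensity of RED replicates 1 and 2, RED replicate 3 differed by -0.58 for Piwi2, -0.70 for Piwi3 and -0.29 for Ago3. The median of the brightest decile on that array was -0.09. On T37 replicate 3 the same differences were -0.29, -0.32 and -0.29, against a decile median of -0.03. These 3 genes were thus lower on those arrays than the median gene of their brightness. Without replicate 3 of each strain, the strain differences were -0.03 for Piwi2, 0.60 for Piwi3 and 0.09 for Ago3. The cause of the low values on replicate 3 was not tested.

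Taking differences within an array removes what moves 2 genes alike. Piwi3 minus Piwi2 was 0.14, 0.22 and 0.15 on the log2 scale on T37 replicates 1, 2 and 3. It was -0.48, -0.43 and -0.57 on RED replicates 1, 2 and 3. The 3 values of each strain lay close together and the strains were far apart, with means of 0.17 ± 0.04 (SD, n = 3) and -0.49 ± 0.07 (SD, n = 3). The strain difference of this quantity was 0.66, and it was 0.63 with replicate 3 of each strain left out. This pair was picked after the values were seen, as the one with the widest gap beside its spread, so these values are a description; the exact permutation p is 0.1, or 0.35 adjusted over all 28 pairs of the family. Since the 2 sets of probes differ, they do not say which gene has more transcript. How far closely related PIWI genes share signal through their probes was not tested, since probe sequences were not used here.

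Piwi3 was also set against each of the other 6 genes. Piwi3 minus Ago3 was 0.39 ± 0.04 on the T37 arrays and -0.24 ± 0.24 on the RED arrays (SD, n = 3 each), with no overlap. The strains did not overlap either for Piwi3 minus Piwi4 or for Piwi3 minus Piwi5, with strain differences of 0.65 and 0.55. Without replicate 3 of each strain these were 0.29 and 0.38. For Piwi3 minus Piwi6, Piwi1 and Piwi7 the strains overlapped, with strain differences of 0.56, -0.40 and 0.31. Of all 28 pairs among the 8 genes, 8 (28.6%) had T37 and RED arrays without overlap. Over all pairs of the 12813 genes the share was 28.3%, so the count is at the background. Each of the 8 pairs holds Piwi1 or Piwi3, the members whose own arrays did not overlap. With 3 arrays a strain, a two-sided exact permutation test cannot go below p = 0.1.

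**Figure D4:**
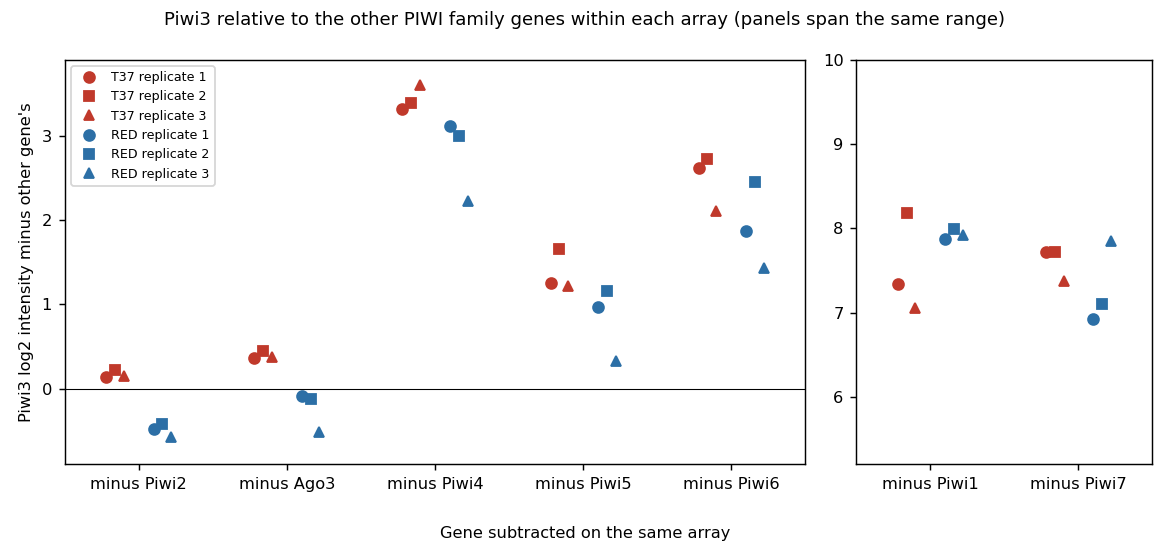
Log2 intensity of Piwi3 minus that of another PIWI gene on the same array (y axis), for each of the 7 other genes (x axis, in 2 panels of equal span). Each point is 1 array. For Piwi2 the T37 arrays lie between 0.14 and 0.22 and the RED arrays between -0.57 and -0.43; for Piwi6, Piwi1 and Piwi7 the strains overlap.

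Piwi5 is the partner of Ago3 in making virus-derived piRNAs in Aedes cells. Its intensity was 11204, 8448 and 9134 on T37 replicates 1, 2 and 3, and 8870, 7898 and 8565 on RED replicates 1, 2 and 3. Apart from T37 replicate 1, which was the brightest, the arrays of both strains were interleaved. Piwi5 averaged 13.22 ± 0.21 on the T37 arrays and 13.04 ± 0.09 on the RED arrays (log2 intensity, SD, n = 3 each), and the difference was 0.18 (SE 0.18, 95% interval -0.26 to 0.61; limma adjusted p = 0.634). Unlike Piwi2 and Ago3, Piwi5 was not lowest on replicate 3 of either strain. Its log2 intensity on RED replicate 3 differed by 0.03 from the mean of RED replicates 1 and 2. Without T37 replicate 1 the strain difference was 0.059, and without replicate 3 of each strain it was 0.22.

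Piwi6, which binds piRNAs of transposons in Aedes cells, had an intensity of 4320, 4029 and 4959 on T37 replicates 1, 2 and 3, and of 4759, 3230 and 3988 on RED replicates 1, 2 and 3. The groups overlapped, with the lowest value on RED replicate 2. Piwi6 averaged 12.11 ± 0.15 on the T37 arrays and 11.95 ± 0.28 on the RED arrays (log2 intensity, SD, n = 3 each). The difference was 0.16 (SE 0.21, 95% interval -0.34 to 0.67; limma adjusted p = 0.708). Leaving out RED replicate 2 gave 0.021, leaving out T37 replicate 3 gave 0.081, and leaving out RED replicate 1 gave 0.30. Without replicate 3 of each strain the difference was 0.09.

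Piwi4, whose loss in Aedes cells lets viruses replicate more, had an intensity of 2672, 2548 and 1754 on T37 replicates 1, 2 and 3, and of 2007, 2206 and 2301 on RED replicates 1, 2 and 3. T37 replicates 1 and 2 were above every RED array, and T37 replicate 3 was below every one. Piwi4 averaged 11.16 ± 0.33 on the T37 arrays and 11.08 ± 0.10 on the RED arrays (log2 intensity, SD, n = 3 each). The difference was 0.08 (SE 0.22, 95% interval -0.45 to 0.60; limma adjusted p = 0.882). Without T37 replicate 3 it was 0.27, and without replicate 3 of each strain it was 0.31 (limma adjusted p = 0.252), so the value rests on that array while the test was not passed either way.

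Piwi1 had the largest difference of the family, at the dark end of the arrays. It belongs with Piwi2 and Piwi3 to the genes known mainly from the germline. Its intensity was 164, 91.1 and 160 on T37 replicates 1, 2 and 3, and 74.1, 69.5 and 44.4 on RED replicates 1, 2 and 3. The strains did not overlap. Piwi1 averaged 7.06 ± 0.48 on the T37 arrays and 5.93 ± 0.40 on the RED arrays (log2 intensity, SD, n = 3 each). The difference was 1.13 (SE 0.33, 95% interval 0.34 to 1.92), or 2.19-fold, with a limma p of 0.0128 that became 0.112 after adjustment. In its decile, 124 of 1282 genes (9.67%) differed by more.

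On 5 of the 6 arrays Piwi1 was under the array's 5th percentile, with T37 replicate 1 the exception. No detection calls were used here, so such values could not be told from background. When every value below that percentile was set to it, the difference was 0.06 (limma adjusted p = 0.934). On those 5 arrays the value is then the array's own 5th percentile and no longer a Piwi1 signal. That fit therefore cannot decide whether Piwi1 differs. With cyclic loess scaling it was 1.44 and passed (limma adjusted p = 0.0369), and with the 5th percentile as a covariate it was 1.18 and passed (limma adjusted p = 0.0376). Those fits called 5.39% and 11.9% of all genes. With quality weights on the arrays it was 0.68. Without replicate 3 of each strain it was 0.77 (limma adjusted p = 0.101).

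Piwi7 is known in Aedes from early embryos. Its intensity was 127, 126 and 129 on T37 replicates 1, 2 and 3, and 144, 128 and 46.7 on RED replicates 1, 2 and 3. RED replicate 3 was far below the other 5 arrays, which lay close together. Piwi7 averaged 6.99 ± 0.02 on the T37 arrays and 6.57 ± 0.89 on the RED arrays (log2 intensity, SD, n = 3 each). The difference was 0.42 (SE 0.44, 95% interval -0.65 to 1.49; limma adjusted p = 0.647), and it was -0.10 without RED replicate 3 (limma adjusted p = 0.748). By percentile that array did not stand apart, at 2.30 against 2.72 and 2.96 on the other RED arrays. The whole dimmest decile was low there: its median on RED replicate 3 was -0.79 against the mean of RED replicates 1 and 2, where Piwi7 was -1.54. Piwi7 was under the 5th percentile on 5 of 6 arrays. The strains overlapped in the intensity of Piwi7, but by percentile every T37 array was above every RED array. That gap was narrow: the lowest T37 percentile was 3.02, on replicate 3, and the highest RED percentile was 2.96, on replicate 2. Without detection calls, values this dim could not be told from background.

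**Figure D5:**
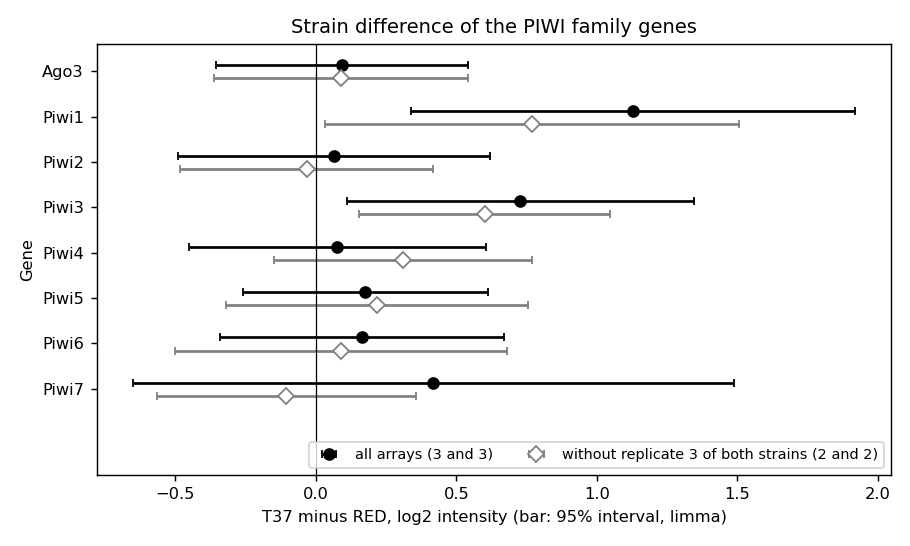
Strain difference of each PIWI family gene (x axis, T37 minus RED, log2 intensity) with its 95% interval from limma. Filled points use all arrays (3 and 3) and open points leave out replicate 3 of each strain (2 and 2). With all arrays the intervals of Piwi1 and Piwi3 lie above 0 before adjustment, and Piwi2 and Piwi7 change sign when those are left out.

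The intervals show what the 6 arrays could resolve. For Piwi2, Piwi4, Piwi5, Piwi6 and Ago3 the 95% intervals, not adjusted for many genes, lay within 1.59-fold in either direction, so larger strain differences in the signal of these 5 genes fall outside them. For Piwi7 the interval reached 2.80-fold higher in T37. The pooled SD of the 8 genes had a median of 0.26 on the log2 scale, against 0.33 over all genes. It was lowest in Piwi5, at 0.16, and highest in Piwi7, at 0.63.

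Likeness between genes was measured as Pearson's r of log2 intensity over the 6 arrays. Such values are a description, since all genes on an array share its depth of signal and the points are few. Within the family Piwi2 and Ago3 were most alike (r = 0.925). Among the 12812 other genes Ago3 ranked 110 in likeness to Piwi2, and Piwi2 ranked 313 in likeness to Ago3. Next came Piwi2 with Piwi7 (r = 0.862) and Piwi1 with Piwi3 (r = 0.822), while Piwi5 and Piwi6 had r = 0.503. The lowest value in the family was -0.442, for Piwi4 and Piwi6. The genes most like Piwi1, the member with the largest strain difference, were AAEL013282 (r = 0.985) and AAEL004642 (r = 0.969). In total 77 genes had an r over 0.9 with Piwi1, 189 with Piwi2 and 631 with Piwi3.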

How the data were processed

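The authors deposited linear intensities, 1 for each transcript on each array. RMA, which corrects background, equalises arrays and summarises probes, is named per the submitters' processing notes. Nothing used here gives its version, the build, the annotation, or the probes and layout of the array. Equalised arrays would hide a change common to all transcripts. The deposited arrays were close in median but not alike at the dim end, where the 5th percentile of intensity ran from 88.7 to 195. The strain in the sample titles set the groups; the RED descriptions also mention T37, against all other labels. Intensities of 13471 transcripts were converted to log2 with no pseudocount and averaged per gene (12813 genes). T37 was compared with RED by limma 3.58.1 in R 4.3.3 (lmFit, eBayes, two-sided, all 6 arrays, no covariate or filter), with Benjamini-Hochberg adjustment over all genes and a threshold of 0.05. The number of arrays limits the precision.

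On simulated data for this comparison, 200 of 12813 genes were changed, noise was normal and independent, and the SDs were shuffled among genes. The fit called 9 of 100 genes that differed by 1 (log2), 52 of 100 that differed by 2 and 4 unchanged genes. In the real data the SD falls with brightness, so these rates are not those of the PIWI genes. All 8 PIWI genes were named by rule, with the 2 genes most like the member of largest difference. Members, lists and tests were chosen with earlier results of these data known. Other genes of the piRNA pathway were to be named only through a reference table that pairs the identifiers with names; none matched, so they were not analysed here. Replicate numbers did not pair the arrays: across genes, departures from the strain means had r of -0.25, -0.16 and -0.17 between arrays of equal number. The 18 alternatives were leaving out each array or replicate 3 of both strains, a replicate block, quantile, cyclic loess and median scaling, removal of the dimmest 25% of genes, dim values raised to the 5th percentile or that percentile as a covariate, an intensity trend, a robust prior, array weights, and transcripts tested singly.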

Additional observations from a re-analysis of the deposited data

How the results depend on the processing

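No PIWI gene was called with all arrays, and 0 were called when any single array was left out. Without T37 replicates 1, 2 and 3 those fits called 0.117%, 0.078% and 2.44% of all genes. Without RED replicates 1, 2 and 3 they called 0.648%, 0.289% and 7.47%, against 4.53% with all arrays. At such shares a count of 0 among 8 genes says little about the family. The count was 1 in 4 alternatives: without replicate 3 of both strains (1, Piwi3), array weights (1, Piwi3), cyclic loess (1, Piwi1) and the 5th percentile as covariate (1, Piwi1). The cause was not tested. With the replicate block limma called 0 of all 12813 genes, so its 0 among PIWI genes carries no information; the smallest adjusted p among them was 0.187 and 2 had an unadjusted p under 0.05; the numbers do not pair the arrays, and in departures from the strain means each array was closer to another number than to its own. Of 142 values of single genes, 127 kept their sign and side of the threshold and 11 changed sign, none of them past the test. With the replicate block, intensity trend, robust prior, single transcripts or dim genes removed, each difference equals the main one. No sign could change in those fits, so the tally overstates how stable the values are. Leaving out 1 array gave -0.13 to 0.17 for Piwi2, -0.036 to 0.27 for Piwi4, -0.10 to 0.72 for Piwi7 and -0.0065 to 0.19 for Ago3, and also 0.059 to 0.26 for Piwi5 and 0.021 to 0.30 for Piwi6. The other changes of sign were -0.033 for Piwi2 and -0.11 for Piwi7 without replicate 3 of both strains. Piwi2 changed to -0.016 with array weights and Piwi4 to -0.023 after cyclic loess. With dim values raised Piwi7 gave -0.062, but on 5 of 6 arrays its value is then the array's own 5th percentile. Piwi1, Piwi3, Piwi5 and Piwi6 kept their sign in every alternative that gave a value, though not their size. For Piwi1 and Piwi3, whose T37 and RED arrays did not overlap, leaving out or weighting arrays could not change the sign. Piwi1 and Piwi7 have none without the dimmest 25% of genes, since they are among those. Values of Piwi1 and Piwi7 are limited by the dark end of the arrays.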
